A study of Mus musculus with 2 samples.

Results

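The Ccr7+ mature dendritic cells of mouse liver made up 235 of the 15384 cells in a scRNA-seq data set of sorted CD11b+ liver cells, a share of 1.53% (95% exact interval 1.34% to 1.73%). A cell was taken as one when it had at most 25% mitochondrial counts and a count above 0 for at least 3 of the 5 genes Ccr7, Fscn1, Cacnb3, Apol7c and Nudt17. The study asked how the transcription factor Egr2 in monocytes and macrophages shapes steatohepatitis brought on by CDA-HFD, a high-fat feed that lacks choline and whose amino acids are defined. Its single-cell experiment held 4 mice, 1 for each combination of diet and genotype, whose CD45.2+ cells were sorted for CD11b after exclusion of CD90.2, B220, NK1.1 and SiglecF. Cells were marked by mouse through biotinylated anti-CD45.2 and streptavidin that bore a DNA barcode, the hashtag, then pooled, and were captured together on the BD Rhapsody system and amplified by TAS-Seq.

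All 4 mice carried Egr2 alleles flanked by loxP sites (Egr2 fl/fl), while 2 had no further allele named and the other 2 also carried Cre in the Lyz2 locus (Lyz2 Cre/+.Egr2 fl/fl). The former are called mice without Cre and the latter mice with Cre from here on. One mouse of each genotype was fed a normal diet (ND) and the other CDA-HFD for 7 weeks, and the methods give an age of 6 to 12 weeks for mice put on CDA-HFD. Cre is made where the Lyz2 promoter is active, and how far that reaches dendritic cells limits the model. Lyz2, which encodes lysozyme, had a count in 8.94% of the Ccr7+ cells and in 76.1% of all other cells, and its level was 545 and 8041 CPM (counts scaled to a library total of 1000000). The lowest Lyz2 value above 0 in the matrix was 11, so low Lyz2 levels are not seen. Since each group was a single mouse, the spread between mice of a group is unknown and no test between diets or genotypes was made. All intervals are 95% intervals of counting error alone, and the difference between any 2 groups cannot be told apart from the difference between any 2 mice.

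Mature dendritic cells are the state that dendritic cells enter once they have taken up antigen and been activated, or in steady state without infection. They then express the chemokine receptor Ccr7, follow the chemokines Ccl19 and Ccl21 into lymphatic vessels and draining lymph nodes, and present antigen to T cells there. On the way they reduce uptake of new antigen, rearrange their actin skeleton, raise costimulatory ligands and turn on noncanonical NF-kB signalling, together with molecules that restrain T cells such as PD-L1. In the liver, dendritic cells drain from the portal tracts to the hepatic lymph nodes.

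Of the 16786 barcodes of the mRNA matrix, all were different and all were also found in the hashtag table, 15394 were named for 1 of the mice and 1392 were named doublets by the authors. The 4 mice gave 1590 to 6186 cells each, with median totals of 13168 to 16459 counts per cell. The Ccr7+ cells had a median of 13224 counts and 2119 genes, with medians between 12331 and 14143 counts in the 4 mice. The median of the Cd209a+ dendritic cells, defined further on, was 16097.5 counts, that of the Xcr1+ dendritic cells 29737.5 and that of neutrophils 4161, so shares of cells with a count were also computed after every cell was thinned to 3000 counts.

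The rule genes describe the members and are not findings. Ccr7, the receptor named above, lies on chromosome 11 at 99144199 to 99155077 (GRCm38.p6) and had a count in 234 of the 235 cells, with a median of 36 counts. Fscn1 (chromosome 5, 142960355 to 142973189), which encodes the actin-bundling protein fascin of dendritic cell projections, had a count in 92.3% of them, with a median of 16. Cacnb3 (chromosome 15, 98628436 to 98644536), a subunit of voltage-gated calcium channels, had a count in 85.1%. Apol7c (chromosome 15, 77524852 to 77533335), an apolipoprotein L family member, had one in 63.0%, and Nudt17 (chromosome 3, 96705892 to 96708916), a Nudix hydrolase, in 61.3%. Among all other cells these shares were 3.46%, 1.51%, 0.574%, 0.594% and 0.323%, and in neutrophils, which should lack Ccr7, 1.37% had a count for it. The most frequent combination was all 5 genes, in 71 cells, followed by all but Nudt17 in 43 cells.

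Values just inside and just outside the threshold are given as a description. The 15 leading genes described below were picked for their level in the members, so a higher number of them in members follows from that choice. The 79 cells with 2 rule genes had a median of 3 of them, the 68 cells with 3 had 6, the 96 with 4 had 7 and the 71 with 5 had 9. Il4i1, a secreted amino acid oxidase, had a count in 78.5% of cells with 2 rule genes, in 89.7% of those with 3 and in 21.1% of those with 1. Csf1r, the receptor for M-CSF, ran the other way and had a count in 58.2% of cells with 2 rule genes, 33.8% of those with 3 and 75.1% of those with 1. In a Seurat clustering of all cells, 29.1% of the cells with 2 rule genes, 83.8% of those with 3 and 100% of those with 5 fell into the same cluster.

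**Figure D1:**
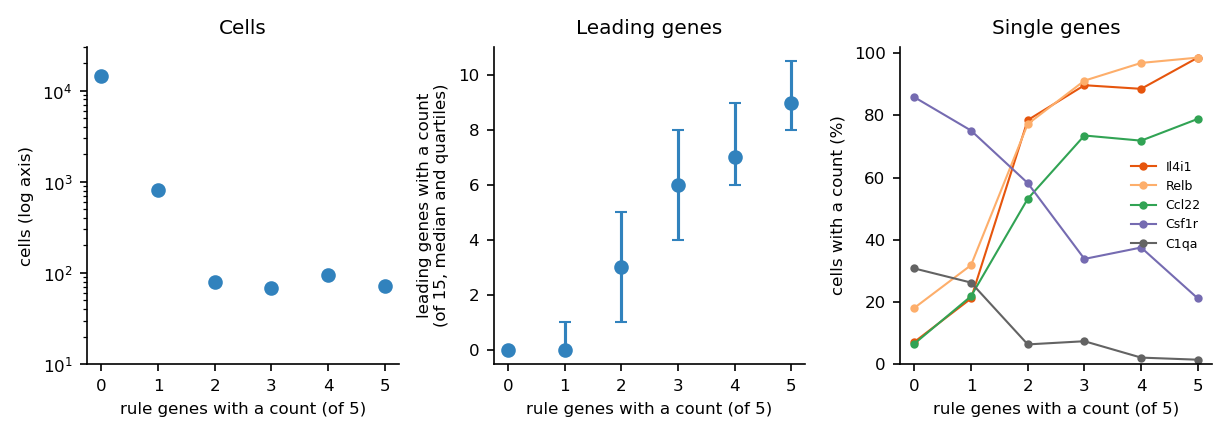
Cells by the number of rule genes with a count (x axis, 0 to 5): the number of cells on a log axis (left), the leading genes with a count per cell out of 15 as median with quartile bars (middle), and the percentage of cells with a count for 5 single genes (right). From 3 rule genes on, the median was at least 6 leading genes, Il4i1 and Relb were found in at least 88.5% of the cells and C1qa in at most 7.35%.

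That cluster, 1 of 23, held 244 cells, of which 221 were members (94.0% of the members, 90.2% to 96.7%) and the other 23 had 2 rule genes. The 14 members outside it were spread over 7 clusters, 6 of them in the largest. It held 18 cells of the ND mouse without Cre and 12 of the ND mouse with Cre. On CDA-HFD it held 114 cells of the mouse without Cre and 100 of the mouse with Cre. At resolution 0.5 and 2.0 the cluster again held 244 cells and 221 members. With 30 principal components the cluster with most members was wider, at 363 cells. Of these, 227 were members (62.5%), 51 had 2 rule genes and 85 had fewer. The clustering used the same counts as the rule, so it is not an independent check of the rule.

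The markers of dendritic cells and of other cell types were checked against the label. The 8 pan dendritic markers include Flt3 and Kmo, which the Cd209a+ rule used, so their count in Cd209a+ cells is partly fixed by that rule. At least 3 were found in 58.3% of the members, 75.9% of Cd209a+ cells and 12.8% of all other cells. Against Cd209a+ cells 1 was higher (Batf3) and 3 were lower (Bcl11a, Kmo and Itgax). Itgax, which encodes CD11c, was at 0.307-fold to 0.636-fold the level of the Cd209a+ cells of the same mouse. Flt3, the growth factor receptor of the dendritic lineage, had 120 CPM in the members and 18.7 CPM in all other cells. Zbtb46, a transcription factor of conventional dendritic cells, had 34.5 against 6.34 CPM. Within mice, the ratio of members to Cd209a+ cells ran from 0.671 to 1.70 for Flt3 and from 0.290 to 1.88 for Zbtb46. Taken over the whole list of 8 macrophage markers, 5.53% of the members and 54.0% of all other cells had counts for at least 3, and the summed level ranged from 112 to 447 CPM over the members of the 4 mice against 7069 CPM in other cells. The 8 Kupffer cell markers summed to at most 91.3 CPM in the members of any mouse, against 3978 CPM in other cells. Of the 8 monocyte markers at least 3 were found in 29 members (12.3%, 8.42% to 17.2%), in 58.1% of Cd209a+ cells and in 61.2% of all other cells, and their sum was 321 CPM in the members against 2732 CPM in all other cells. Markers of plasmacytoid dendritic cells, T and NK cells, B cells, innate lymphoid cells, hepatocytes and endothelial cells reached 3 genes in 0 to 2 of the 235 members. Among their defining genes, Gzma, Ncr1, Cd79a, Pax5, Gata3, Alb and Cyp3a11 were at 0. Others were not, such as Ms4a1 of B cells with 14.7 CPM in the members against 2.55 in Cd209a+ cells, Rora of innate lymphoid cells with 16.2 against 2.82, and Kdr of endothelium with 91.0 CPM in the ND mouse without Cre. The T and NK cell markers summed to 139 CPM in the members of that mouse and to at most 21.7 CPM in those of the other mice, against 68.0 CPM in all other cells. The neutrophil markers summed to 186 to 262 CPM in the members of 3 mice and to 865 CPM in those of the CDA-HFD mouse with Cre, where 1 cell held all counts of S100a9. By this work's own marker rules, 10 members also passed as Cd209a+ dendritic cells, 2 as Xcr1+ dendritic cells and 4 as neutrophils. Without them 220 members remained, with 20, 12, 99 and 89 in the 4 mice.

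Ccr7+ cells were a small share of the sorted cells in every mouse. They were 21 of 1723 cells (1.22%, 0.756% to 1.86%) in the ND mouse without Cre and 12 of 1590 (0.755%, 0.391% to 1.31%) in the ND mouse with Cre. On CDA-HFD they were 107 of 5885 (1.82%, 1.49% to 2.19%) in the mouse without Cre and 95 of 6186 (1.54%, 1.24% to 1.87%) in the mouse with Cre. The share was thus higher in the CDA-HFD-fed mouse of either genotype. The ratio of CDA-HFD to ND was 1.49 in mice without Cre, with an interval from 0.928 to 2.51 that includes 1, and the difference was 0.599 percentage points (-0.117 to 1.19). In mice with Cre the ratio was 2.03 (1.11 to 4.08) and the difference 0.781 points (0.150 to 1.28). With at least 2 of the 5 rule genes the ratio without Cre was 1.66 (1.10 to 2.60), and for the cells of the Seurat cluster 1.85 (1.12 to 3.24), so whether its interval includes 1 depends on how the cells are defined. With Cre the ratio was 1.67 (0.853 to 3.65) with at least 4 rule genes and 3.26 (1.34 to 10.4) among cells with at least 90% own hashtag. It was 1.39 (0.759 to 2.78) as a share of a dendritic base, meaning all members plus the other cells with at least 3 pan dendritic markers. That base counts every member, although only 58.3% of them had 3 such markers. The ratio of the mouse with Cre to the mouse without Cre was 0.619 (0.278 to 1.32) on ND. There it was 0.995 (0.446 to 2.12) as a share of the same dendritic base and 0.436 (0.122 to 1.30) among cells with at least 90% own hashtag. On CDA-HFD the ratio was 0.845 (0.634 to 1.12) and the difference -0.282 points (-0.757 to 0.187). All of these intervals of the ratio include 1, but with at least 2 rule genes the ratio on CDA-HFD was 0.746 (0.583 to 0.954). These are shares of the cells that passed the CD11b gate, and a change in other cells of the gate moves them as well.

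Against the other dendritic cells the balance differed by class. Cd209a+ dendritic cells, defined by counts for at least 3 of Cd209a, Clec10a, Flt3, Klrd1 and Kmo, numbered 147, 120, 630 and 619 in the ND mouse without Cre, the ND mouse with Cre, the CDA-HFD mouse without Cre and the CDA-HFD mouse with Cre, the order used for 4 values from here on. There were 0.143, 0.1, 0.1698 and 0.153 Ccr7+ cells per Cd209a+ cell, with overlapping intervals. Xcr1+ dendritic cells, defined in the same way by Xcr1, Clec9a, Itgae, Tlr3 and Wdfy4, numbered 46, 29, 19 and 46. There were 0.457 (0.259 to 0.781) and 0.414 (0.192 to 0.836) Ccr7+ cells per Xcr1+ cell in the ND mice, and 5.63 (3.44 to 9.72) and 2.07 (1.44 to 3.004) in the CDA-HFD mice. The intervals of the ND mice did not overlap those of the CDA-HFD mice, nor did those of the 2 CDA-HFD mice overlap each other. The Xcr1+ cells were 2.67% and 1.82% of all cells on ND but 0.323% and 0.744% on CDA-HFD. The Xcr1+ class was mixed, since 34.3% of it had at least 3 macrophage markers and 21.4% at least 3 Kupffer cell markers. The part of such cells in these numbers was not tested.

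**Figure D2:**
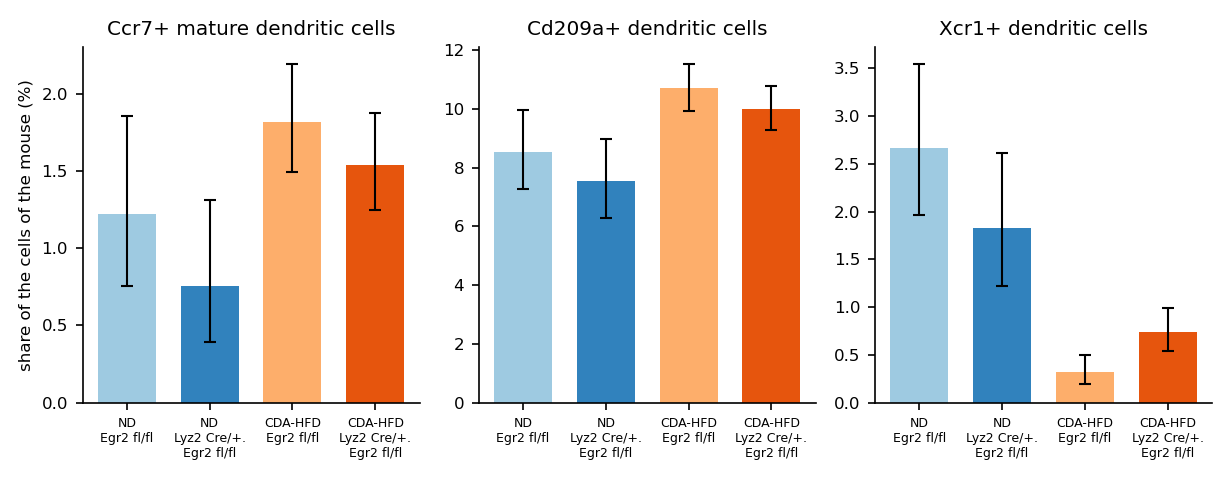
Share of the cells of each mouse (y axis, percent; 1 bar per mouse) for Ccr7+ mature, Cd209a+ and Xcr1+ dendritic cells, with exact 95% intervals of counting error as error bars. Ccr7+ cells ran from 0.755% to 1.82% with overlapping intervals within each diet, while Xcr1+ cells were 2.67% and 1.82% in the ND mice and 0.323% and 0.744% in the CDA-HFD mice. Of the Xcr1+ cells, 34.3% also had at least 3 macrophage markers.

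The 15 leading genes are those, other than the rule genes, with the highest ratio of CPM in the members to CPM in all other cells, among genes found in at least 20% of the members. They were Clu, Adcy6, Gm13546, Mmp25, Lad1, Tbc1d4, Socs2, Mreg, Tmem150c, Gm47034, Slco5a1, Serpinb6b, Pla2g4f, Slc4a8 and Ccl5. Clu, which encodes the secreted chaperone clusterin, had 353, 325, 510 and 372 CPM in the 4 mice and 3.27 CPM in all other cells. It had a count in only 77 of the 235 members, so it marked some of them. Adcy6, an adenylate cyclase that makes cyclic AMP, had 99.5, 175, 152 and 166 CPM against 0.535 CPM in all other cells, and 144 members had a count. Tmem150c, an ion channel regulator, had 57.5 CPM in the members and 0 counts in the 1516 Cd209a+ cells. Mmp25, a membrane-anchored metalloproteinase also known from neutrophils, had 295 CPM in the members, 47.9 CPM in neutrophils and 2.75 CPM in Cd209a+ cells. Serpinb6b, a serine protease inhibitor of the granzyme-inhibiting family, had 785, 687, 292 and 433 CPM, higher in both ND mice than in both CDA-HFD mice. Pla2g4f, a cytosolic phospholipase A2, had 46.3 CPM and was found in 47 members.

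**Figure D3:**
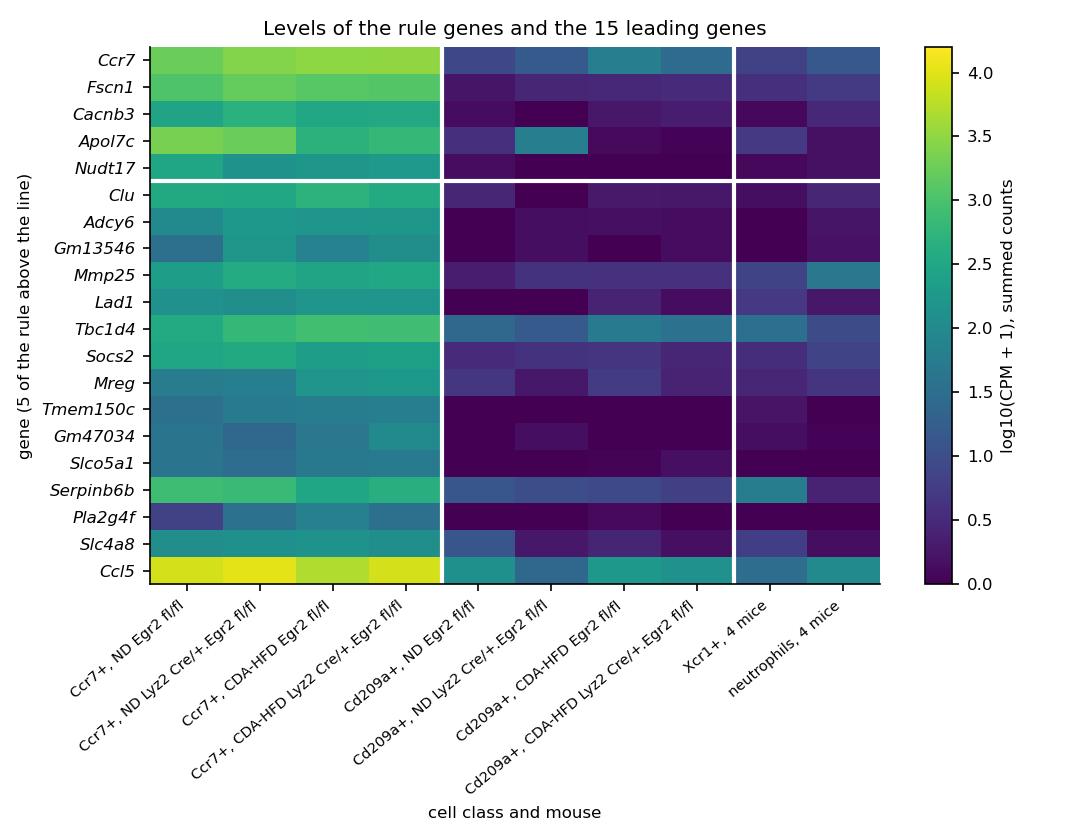
Levels of the 5 rule genes and the 15 leading genes as log10(CPM + 1), from 0 in dark to 4.2 in yellow, in the Ccr7+ and Cd209a+ cells of each mouse and in Xcr1+ cells and neutrophils of all 4 mice. All 20 genes were higher in the Ccr7+ cells of every mouse than in the Cd209a+ cells of the same mouse, and Ccl5 reached 10575 CPM in the members of the ND mouse with Cre.

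How the members differ from the other dendritic cells was described over genes that had at least 100 counts in all and were found in at least 10% of the cells on 1 side. A gene is given as higher or lower at a 2-fold ratio of CPM, with 1 CPM added on both sides, and since the members were chosen on the same cells this is a description with no test. Against Cd209a+ cells, 701 of 7344 genes were higher (9.55%) and 1184 lower (16.1%), with a median log2 ratio of -0.18 over all of them. Of the 701, 599 were on the same side in all 4 mice and 374 were 2-fold higher in each mouse, and of the 1184, 1053 and 537. Against Xcr1+ cells, 713 of 6742 genes were higher (10.6%) and 1336 lower (19.8%), with a median of -0.22, which TMM scaling moved to -0.056. The Xcr1+ cells also held macrophage RNA, since 34.3% had at least 3 of the 8 macrophage markers and 21.4% at least 3 of the 8 Kupffer cell markers, with summed levels of 5987 and 4354 CPM against 710 and 167 CPM in Cd209a+ cells, and all 8 markers of each list were among the genes lower in the members. The part of this RNA in the other genes was not tested, and the 2 ND mice gave 46 and 29 of the 140 Xcr1+ cells but 21 and 12 of the 235 members, so that diet and class cannot be told apart in sums over mice. The gene lists below are read against these shares.

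Costimulatory ligands were partly higher. Of 9 listed genes with enough counts, 5 were higher and 3 lower than in Cd209a+ cells (median log2 ratio 1.19), and 6 higher and 2 lower than in Xcr1+ cells (1.77). Cd40, the receptor through which helper T cells license dendritic cells, had 154, 150, 228 and 172 CPM in the members and 62.4, 35.7, 56.2 and 49.3 CPM in the Cd209a+ cells of the same mice. The 2 ranges did not overlap, and the ratio of the sums was 3.73 (3.40 to 4.10). Cd83, a classical maturation marker, had 734, 681, 1089 and 1004 CPM against 133, 118, 561 and 416 CPM. It was higher in the members of every mouse, and both CDA-HFD mice were above both ND mice. Icosl, the ligand of ICOS on T cells, had 200 CPM against 69.9, and Icam1, an adhesion molecule of the synapse, 173 against 57.1. Cd80 was 2.34-fold higher (1.97 to 2.78). Neutrophils had 72.4 CPM of Cd80 against 51.9 CPM in the members, and 163 CPM of Icam1. Cd86, the relative of Cd80, was at 67.2 CPM in the members, 46.9 in Cd209a+ cells and 162 in Xcr1+ cells. Cd48, Alcam and Tnfsf9, the last encoding 4-1BBL, were lower than in Cd209a+ cells, with 71.0 against 276 CPM for Cd48.

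Molecules known to restrain T cells or cytokine signals were, apart from the rule genes, the list with the highest median. Against Cd209a+ cells 8 of 12 genes were higher and 3 lower (median 2.69), and against Xcr1+ cells 8 of 11 were higher and 1 lower (2.78). Il4i1, which depletes aromatic amino acids, had 1012, 800, 838 and 915 CPM in the members and 23.9, 4.46, 33.5 and 36.4 CPM in Cd209a+ cells. After thinning it was found in 80.0% of the members, 6.13% of Cd209a+ cells, 1.43% of Xcr1+ cells and 0.712% of neutrophils. Socs2, a suppressor of cytokine signalling, had 242 CPM against 2.63, with 293, 350, 217 and 245 CPM in the members of the 4 mice. Cd274, which encodes PD-L1, had 96.7, 49.97, 79.3 and 58.8 CPM against 8.54 CPM over all Cd209a+ cells. It was not particular to dendritic cells, since neutrophils had 82.1 CPM. Cd200, the ligand of an inhibitory receptor, had 60.1 against 4.38 CPM and Fas, a death receptor, 48.0 against 3.85 CPM. Neutrophils had 92.9 CPM of Fas. Aldh1a2, which makes retinoic acid, had 73.4 against 4.08 CPM. Ido1 had 0 counts in the 235 members, which allows up to 1.28% of cells with a count, and Lgals9, Socs3 and Tgfb1 were lower than in Cd209a+ cells.

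Among cytokines and their receptors, 8 of 11 genes were higher and 1 lower than in Cd209a+ cells (median 2.50), and 9 of 11 higher and 1 lower than in Xcr1+ cells (1.95). Il12b, the p40 subunit of IL-12 and IL-23, had 151, 0, 161 and 362 CPM in the members and 0.191 CPM in Cd209a+ cells. It had no count in the 12 members of the ND mouse with Cre, which allows up to 18.7 CPM, and in the other mice 4 of 21, 22 of 107 and 15 of 95 members had one. Xcr1+ cells, the class known for IL-12, had 80.5 CPM of Il12b summed over mice, and no value within mice was computed. Il12a, the partner subunit p35, and Il10 had 0 counts in the members, a limit of 0.884 CPM. Il15 and its presenting receptor Il15ra, which act as a pair on T and NK cells, had 57.8 against 7.51 CPM and 59.5 against 3.97 CPM. Neutrophils had 80.4 CPM of Il15. The receptors Il7r, Il2ra, Il21r and Csf2rb were all higher, with 125, 212, 113 and 167 CPM of Il7r in the members against 13.6 to 18.3 CPM in the Cd209a+ cells of the 4 mice. Il1b was at 1166 CPM in the members, below the 1990 CPM of Cd209a+ cells and above the 461 CPM of Xcr1+ cells.

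Chemokines divided into 2 sets. Ccl22, Ccl5 and Cxcl16 were higher than in Cd209a+ cells, and Ccl3, Ccl4 and Ccl6 lower, out of 8 with enough counts (median -0.06). Ccl22, which attracts Ccr4-bearing T cells including regulatory T cells, had 2775, 650, 2544 and 2064 CPM, lowest in the ND mouse with Cre with 12 members. Each value was 7.93-fold to 16.0-fold that of the Cd209a+ cells of the same mouse. Ccl5, a chemokine that attracts T cells, had 8467, 10575, 4947 and 8479 CPM and was 49.7-fold above Cd209a+ cells (48.0 to 51.5). The lowest Ccl5 value above 0 in the matrix was 6, so cells with few Ccl5 counts are not seen. Cxcl16, a ligand for Cxcr6 on resident T and NKT cells, had a count in 97.9% of the members and 1178 against 246 CPM. Ccl17, which shares its receptor with Ccl22, had 515, 319, 51.6 and 134 CPM and was higher in both ND mice than in both CDA-HFD mice.

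Counts of the chemokines were found in different numbers of members. Ccl22 had a count in 175 members, Ccl5 in 189 and Ccl17 in 53. Ccl22 was found in 69.8% of the members with Ccl5 and in 93.5% of those without it. Of the 53 members with Ccl17, 42 also had Ccl22 (79.2%, against 73.1% of the members without Ccl17). Il12b was found in 29 of the 175 members with Ccl22 (16.6%) and in 20% of the rest, and Clu in 32.0% and 35.0%. A cell with no count may still make the gene, and since these shares depend on the depth of each cell and were not matched for it, they are descriptions only.

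Of 13 listed chemokine receptors, 5 had enough counts against Cd209a+ cells. Of these, 4 were lower than in Cd209a+ cells and 0 higher (median -2.98), and against Xcr1+ cells 4 of 6 were lower and 1 higher (-2.88). Ccr2, which draws monocytes and their descendants to inflamed tissue, had 48.3, 0, 51.0 and 34.8 CPM in the members against 379, 313, 442 and 505 CPM. Ccr1 had 5.01 against 76.6 CPM and Cx3cr1 31.2 against 121 CPM. Cxcr4, the receptor that was not lower by 2-fold, was at 191 against 199 CPM, a ratio of 0.956 (0.880 to 1.04), and Ccr7 itself at 2967 against 38.8 CPM.

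NF-kB factors and their known targets were higher as a list. Of 17 genes, 11 were higher and 1 lower than in Cd209a+ cells (median 1.13), and 14 higher and 0 lower than in Xcr1+ cells (2.67). Relb, the factor of the noncanonical pathway, had 674, 493, 478 and 510 CPM in the members and 25.7, 12.9, 37.9 and 33.8 CPM in Cd209a+ cells, a ratio of 15.6 (14.4 to 16.9). Its partner Nfkb2 had 236, 369, 197 and 194 CPM against 58.4, 65.2, 52.8 and 50.8 CPM. Every mouse showed the difference for both genes. Map3k14, the kinase NIK that starts this pathway, had 186 against 30.5 CPM. Birc2 and Traf1, which sit in the complex that keeps NIK low, had 301 against 22.8 and 984 against 154 CPM. Rel, the c-Rel factor, had 353 against 106 CPM. Nfkb1, which encodes p105 and p50 of the canonical pathway, was the 1 gene on the other side, with 73.9, 87.5, 81.8 and 66.6 CPM against 205, 195, 219 and 234 CPM. Stat4, a signal transducer of IL-12, had 86.7 against 18.1 CPM.

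Promoter sequence is shown for this list as a description of its members. Windows of 250 bases before to 50 bases after the start site were taken from RefSeq (GRCm38.p6) for 15 of the 17 genes and searched on both strands, and a gene was counted once. The NF-kB consensus was found in 8 of the 15 (53.3%) and in 2581 of the 27025 genes with a window (9.55%, or 8.46% of all windows). The 8 were Bcl3, Nfkb2, Nfkbia, Nfkbie, Rel, Stat5a, Tnfaip3 and Tnip1, and a match is a run of letters, not a measured site. Of these 8, Bcl3, Nfkb2, Rel and Stat5a were 2-fold higher than in Cd209a+ cells, while Nfkbia, Nfkbie, Tnfaip3 and Tnip1 had ratios from 0.920 to 1.48. Below are 30 bases around a match in Rel (chr11:23771042-23771071), Nfkb2 (chr19:46304688-46304717) and Stat5a (chr11:100860240-100860269), and in Icosl (chr10:78069247-78069276) and H2-K1 (chr17:34000438-34000467) of other lists, read 5′ to 3′ on the strand of the gene, with the match in capitals, which for Icosl lies on the opposite strand. The genes Rel and H2-K1 lie on the minus strand, the other 3 on the plus strand.
Rel: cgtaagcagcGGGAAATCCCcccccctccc
Nfkb2: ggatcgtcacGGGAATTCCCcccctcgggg
Stat5a: gtgtagggagGGGGCACCCCgctgtagggg
Icosl: gagcggaggcGGAGCTCCCCgcctccaacc
H2-K1: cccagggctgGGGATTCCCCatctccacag

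Genes listed for cytoskeleton and motility were mostly higher, with 10 of 12 higher and 0 lower than in Cd209a+ cells (median 2.39). Against Xcr1+ cells 9 were higher and 0 lower (1.88). The list is mixed, since it also holds Tmem123 of the cell surface and Tbc1d4 of vesicle traffic, the latter also a leading gene. Within mice, Actg1, an actin, was at 1.87-fold to 2.18-fold the level of Cd209a+ cells, and Coro1a, which binds actin, at 0.385-fold to 0.614-fold. Tmem123, a sialomucin of the cell surface known as porimin, had 2590, 3985, 2956 and 3148 CPM against 123, 124, 134 and 140 CPM. It had a count in all 235 members, and after thinning in 98.3% of them, 28.8% of Cd209a+ cells and 13.7% of neutrophils. Marcksl1, an actin-binding substrate of protein kinase C, had 1108 against 234 CPM in Cd209a+ cells, and neutrophils had 1809 CPM. Tbc1d4, a Rab GTPase-activating protein of vesicle traffic, had 773 against 40.2 CPM, and Samsn1, an adaptor that affects actin, 626 against 51.0. Among genes listed for survival, 3 of 5 were higher and 1 lower (median 1.30). Bcl2a1b, an anti-apoptotic NF-kB target, had 1842 against 328 CPM. Bcl2 was at least 2-fold lower than in Cd209a+ cells in 3 of the 4 mice and higher in 1. The list also holds Bcl2l11, which promotes cell death, at 1.95-fold to 5.24-fold its level in the Cd209a+ cells of the same mouse. The list thus does not stand for survival alone. Genes of proliferation were low, with 0 higher and 4 of 4 lower than in Cd209a+ cells and 9 of 9 lower than in Xcr1+ cells. Mki67, the marker of cycling cells, had 3.83 CPM in the members, 45.2 in Cd209a+ cells and 96.2 in Xcr1+ cells.

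MHC class II and class I genes lay on opposite sides of Cd209a+ cells where they passed 2-fold. Of 11 class II presentation genes, 6 were lower and 0 higher (median -1.34), and of 11 class I genes, 4 were higher and 0 lower (0.97). Against Xcr1+ cells 3 of 11 class II genes were lower and 0 higher (median -0.33), and 3 of 11 class I genes higher and 0 lower (0.45). H2-Aa, the alpha chain of I-A, had 10300.3, 6428, 8663 and 8763 CPM in the members against 13764 CPM in Cd209a+ cells and 8021 CPM in Xcr1+ cells. H2-DMa, part of the exchanger that loads class II peptides, had 281, 74.96, 211 and 208 CPM against 1175, 1057, 1101 and 1067 CPM, a ratio of 0.193 (0.179 to 0.208) and lower in every mouse. Ciita, the class II transactivator, had 74.3 against 194 CPM. The lowest H2-Aa value above 0 in the matrix was 8. H2-K1, a class I heavy chain, had 3554, 3754, 2739 and 2938 CPM against 1652, 1309, 1249 and 1294 CPM. Nlrc5, the class I transactivator, had 67.8 against 10.8 CPM and Tapbpl, a peptide editor of class I, 92.0 against 21.6 CPM. B2m, the class I light chain, was 1.99-fold higher (1.97 to 2.02), just under the 2-fold limit.

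Receptors for uptake and pattern recognition were mostly lower, with 7 of 11 lower and 1 higher than in Cd209a+ cells (median -1.52). The exception was Cd36, a scavenger receptor, with 57.2 against 15.7 CPM, though it was at 214 CPM in Xcr1+ cells. Interferon-stimulated genes had no common side, with 3 of 12 higher and 2 lower (median 0.04). Mx1, a dynamin-like antiviral GTPase, had 134, 187, 136 and 131 CPM against 18.1 CPM, and Gbp2, an interferon-gamma-induced GTPase, 529, 256, 156 and 152 CPM against 30.7 CPM. Gbp2 was higher in both ND mice than in both CDA-HFD mice, in the members and in the Cd209a+ cells alike, which had 110, 54.0, 26.3 and 9.15 CPM. The motif GAAA, any 2 bases and GAAA, the core letters of an interferon response element, was found on either strand in the window of 7 of 12 interferon-stimulated genes with one (58.3%), against 1079 of 27025 genes (3.99%, or 3.44% of windows). Apol7c was the only one of the 4 rule genes with a window to hold it, and Stat4 the only one of the 15 NF-kB genes. Matches in Apol7c (chr15:77533351-77533380, minus strand), Gbp2 (chr3:142620594-142620623, plus strand) and Stat4 (chr1:52008133-52008162, plus strand) are shown on the gene's strand with the match in capitals, where the first 2 carry it on the opposite strand.
Apol7c: gaaatggggcTTTCTCTTTCcttttctgct
Gbp2: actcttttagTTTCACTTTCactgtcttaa
Stat4: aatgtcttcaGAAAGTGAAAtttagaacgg

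Part of the genes of cholesterol synthesis were higher in the members, with 5 of 11 higher and 0 lower than in Cd209a+ cells (median 0.94) and 7 higher and 0 lower than in Xcr1+ cells (1.505). Idi1, the isopentenyl diphosphate isomerase, had 230, 350, 230 and 293 CPM against 59.5, 73.2, 42.4 and 25.2 CPM. Hmgcs1, the HMG-CoA synthase, had 145 against 43.1 CPM. Of 4 genes of cholesterol efflux, 1 was lower and 0 higher than in Cd209a+ cells (median 0.37). Against Xcr1+ cells, which also held macrophage RNA, 4 of 6 were lower and 0 higher (-2.51).

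Markers of the 2 conventional dendritic lineages were compared with classes that some of them define. The Xcr1+ rule used 5 of the 8 cDC1 markers and the Cd209a+ rule 3 of the 8 cDC2 markers, Cd209a, Clec10a and Klrd1, so their counts are partly fixed by the rules. Of 8 cDC2 markers 5 were lower and 0 higher than in Cd209a+ cells (median -2.16), and all 8 cDC1 markers were lower than in Xcr1+ cells (-4.11). Cd209a had 12.97 CPM and a count in 13 members, and Xcr1 12.4 CPM and a count in 23. Batf3, a factor of cDC1, had 201 CPM in the members, 74.5 in Cd209a+ cells and 176 in Xcr1+ cells, and Irf8 268, 77.8 and 1345 CPM. Klrd1, which was among the genes that define the Cd209a+ class, had 311 CPM in the members, 558 in Cd209a+ cells and 25.2 in Xcr1+ cells. Cadm1, another cDC1 gene, was found in 20 members, 0 of which had Cd209a. Since only 13 members had Cd209a, and 9.01% of the members without it had Cadm1, these numbers are too small to read the overlap. Spib, an Ets factor listed with plasmacytoid dendritic cells, had 94.6 against 13.95 CPM in Cd209a+ cells and 0.918 CPM in Xcr1+ cells, while Ly6d, Cox6a2 and Klk1 of the same list were at 0.

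**Figure D4:**
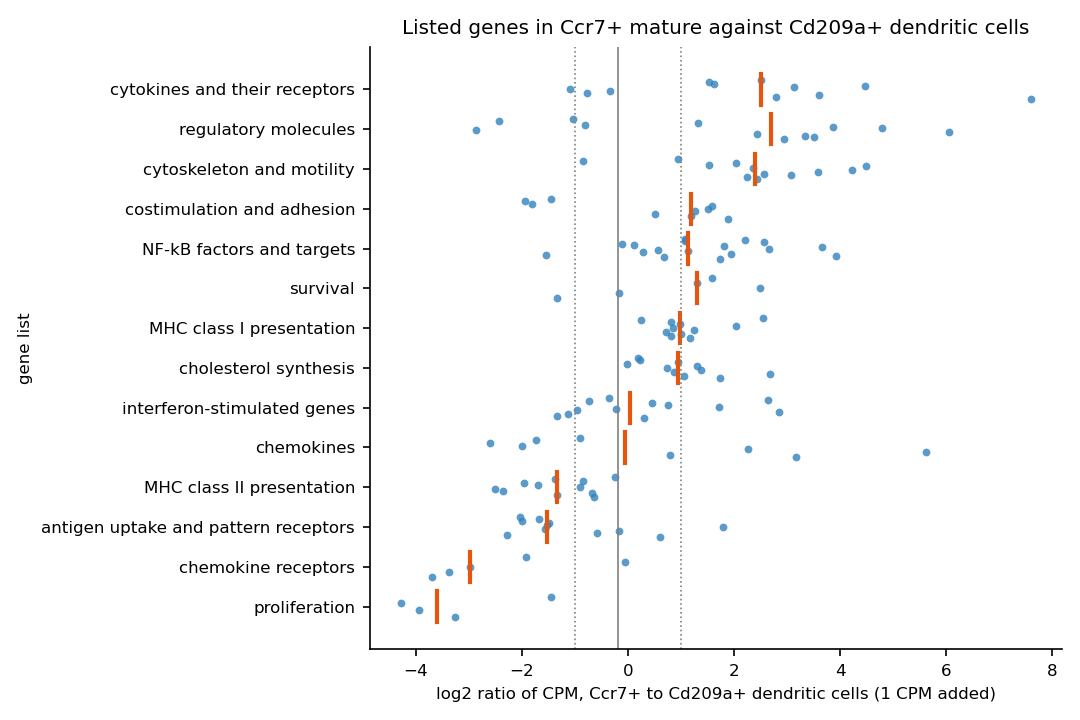
Each point is a listed gene with enough counts, placed at its log2 ratio of CPM in Ccr7+ against Cd209a+ cells (x axis, 1 CPM added), in rows by gene list. Orange bars are list medians, the solid line is the median of all 7344 genes (-0.18) and the dotted lines mark 2-fold; medians run from 2.69 for regulatory molecules to -3.60 for proliferation.

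Egr2, the gene deleted in the mice with Cre, was read first for the genotypes. The members had 37.0 (19.7 to 63.2), 0, 9.44 (5.28 to 15.6) and 6.19 (2.67 to 12.2) CPM of Egr2, from 1, 0, 6 and 2 cells. The ratio of the mouse with Cre to the mouse without Cre on CDA-HFD was 0.656 (0.241 to 1.65), so neither a loss nor an equal level of Egr2 could be read at this depth. Where the counted reads lie relative to the deleted part of the gene was not settled here. Cd209a+ cells had 26.7, 42.4, 59.1 and 40.9 CPM, with a count in 18.1% of cells against 3.83% of the members. Egr1, a related immediate early factor, had 40.7 CPM in the members against 311, and 3 of 5 genes of the Egr and Nab list were lower and 0 higher.

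Between the genotypes on CDA-HFD, the number of genes 2-fold apart in Ccr7+ cells depended on the counts asked of a gene. Of 3210 genes, 33 were at least 2-fold higher (1.03%) and 30 at least 2-fold lower (0.935%) in the mouse with Cre, with a median log2 ratio of 0.0079. With at least 20 counts asked these were 275 and 274, with at least 500 they were 2 and 3, and with 10 CPM added 14 and 16. Relb had a ratio of 1.07 (0.960 to 1.19) and Il4i1 1.09 (1.01 to 1.18). No list had more than 2 genes called in a direction. The cytoskeleton list had 0 of 12, MHC class I 0 of 11 and cholesterol synthesis 0 of 8, while MHC class II had 1 lower of 11. The regulatory list had 2 lower of 9 and 0 higher (median -0.42), namely Aldh1a2 and Tgfb1. The chemokines had 1 higher (Ccl17) and 2 lower (Ccl3 and Ccl4) of 8. Interferon-stimulated genes had 2 higher of 6 (Isg15 and Rsad2) and 0 lower, with a median of 0.64.

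Aldh1a2, the retinoic acid enzyme, had 111 (94.99 to 128) CPM in 38 of 107 members of the CDA-HFD mouse without Cre and 41.0 (30.7 to 53.7) CPM in 19 of 95 of the mouse with Cre. On ND it had 45.5 CPM in 7 cells and 24.99 CPM in 3, on the same side. Il12b was 2.24-fold higher (1.92 to 2.62) in the mouse with Cre on CDA-HFD, with 362 against 161 CPM, although the share of cells with a count was lower, 15 of 95 against 22 of 107. On ND it was found only in the mouse without Cre, the opposite side. Isg15, an interferon-induced ubiquitin-like protein, had 25.2 CPM in the mouse without Cre and 126 CPM in the mouse with Cre on CDA-HFD, while on ND the mouse without Cre was the higher, with 91.0 against 6.25 CPM. S100a8 had 146 and 333 CPM on CDA-HFD, and the neutrophil markers were highest in the same mouse with Cre, as given above. Their part in this difference was not tested.

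The genes with the highest and lowest ratios on CDA-HFD, among those on the same side on ND, were Txnl4a, Rrad, Cltc, Stat4 and Laptm4b, and Ptrhd1, Lamtor4, Ccl4, Aldh1a2 and Dnajc1. Rrad, a Ras-related GTPase that binds calcium channel beta subunits, had 37.0, 49.97, 88.7 and 226 CPM. Stat4 had 56.9, 99.9, 54.7 and 132 CPM, higher in the mouse with Cre of each diet, with a count in 25 members of each CDA-HFD mouse. Cltc, the clathrin heavy chain, had 34.1, 74.96, 44.0 and 107 CPM, and Txnl4a, a spliceosome protein, 71.1, 74.96, 29.6 and 76.6 CPM. Laptm4b, a lysosomal membrane protein, had 54.2 CPM in 14 cells against 22.7 CPM in 12 on CDA-HFD. On the other side, Ptrhd1 had 37.0, 6.25, 80.5 and 17.0 CPM, and Lamtor4, a subunit of the Ragulator complex of lysosomes, 62.5, 0, 58.5 and 13.2 CPM. Dnajc1, a chaperone partner of the endoplasmic reticulum, had 88.1, 6.25, 73.0 and 29.4 CPM. Ccl4 had 22.7, 12.5, 173 and 58.1 CPM. The ratio of Ptrhd1 on CDA-HFD was 0.211 (0.128 to 0.334) and that of Ccl4 0.336 (0.256 to 0.435). These genes were chosen for their extreme ratios in the Ccr7+ cells, so less extreme ratios elsewhere follow from the choice. The Cd209a+ cells of the CDA-HFD mice had 38.3 and 37.6 CPM of Ptrhd1, 777 and 820 CPM of Ccl4 and 30.1 and 29.997 CPM of Rrad, and whether the classes differ was not tested.

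Between the diets, in mice without Cre, 200 of 2316 genes were at least 2-fold higher (8.64%) and 94 at least 2-fold lower (4.06%) on CDA-HFD, with a median of 0.027. Scaling by TMM moved this median to 0.18 and the counts to 252 higher and 60 lower. The ND value rests on 21 cells, so genes are described where the mice with Cre, with 12 and 95 members, were on the same side. The highest of these were Nr4a1, Fosb, Ccl3, Vti1a and Hspa1a, and the lowest Apol7c, Ccl17, Ly6a, Nabp1 and Cd1d1.

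Of the highest 5, Nr4a1, an immediate early nuclear receptor, had 5.69, 18.7, 182 and 129 CPM, and Fosb, an AP-1 factor, 5.69, 12.5, 177 and 185 CPM. Each had a count in 2 of the 21 and 2 of the 12 ND members, against 49 of 107 and 44 of 95 for Nr4a1 on CDA-HFD. Both CDA-HFD mice were above both ND mice. Hspa1a, a heat shock protein of the HSP70 family, had 93.8, 137, 1278 and 403 CPM, and Ccl3, an inflammatory chemokine, 8.53, 24.99, 145 and 58.8 CPM. These 4 genes were on the same side in the Cd209a+ cells of both genotypes, with 67.7, 148, 1268 and 499 CPM of Hspa1a and 66.3, 92.9, 361 and 296 CPM of Nr4a1. So that direction was found in both classes of dendritic cells of these mice. Vti1a, a SNARE protein of vesicle fusion, had 5.69, 18.7, 101.9 and 64.3 CPM in the members and 10.3, 16.1, 14.6 and 20.8 CPM in Cd209a+ cells, on the same side within each genotype. Il1b, the inflammatory cytokine, had 446, 137, 1401 and 1201 CPM, and Map3k14 79.6, 169, 180 and 224 CPM.

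Of the lowest 5, Apol7c had 2172, 1743, 493 and 636 CPM. It is a rule gene, so its level among cells chosen partly on it is a description of the members and no diet result, as is that of Fscn1 with 1112, 1605, 1263 and 1195 CPM. The share of members with a count of Apol7c was 15 of 21, 9 of 12, 69 of 107 and 55 of 95. Ccl17 had a ratio of 0.1003 (0.0763 to 0.131) and 0.420 (0.306 to 0.586), and in Cd209a+ cells it had 125, 128, 59.3 and 84.8 CPM, on the same side. Cd1d1, the molecule that presents lipids to NKT cells, had 236, 156, 46.6 and 119 CPM in the members and 17.8, 17.4, 5.01 and 4.72 CPM in Cd209a+ cells, again lower on CDA-HFD. Nabp1, a single-stranded nucleic acid binding protein, had 515, 150, 89.4 and 111 CPM, higher in both ND mice than in both CDA-HFD mice. Ly6a, which encodes Sca-1, had 407, 6.25, 34.0 and 4.64 CPM, and 5 of the 21 cells of the ND mouse without Cre held nearly all counts on ND.

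Of the lists in mice without Cre, chemokines had 3 higher (Ccl3, Ccl4 and Ccl9) and 2 lower (Ccl17 and Ccl24) of 9, MHC class II presentation 0 higher and 3 lower of 11 (median -0.42) and MHC class I 0 higher and 1 lower of 11 (median -0.61). The class II genes that were lower were H2-DMb2, H2-Oa and Ciita, and the class I gene was Nlrc5. In the mice with Cre all 4 of these genes were on the other side, with 68.7 and 164 CPM of H2-DMb2 and 56.2 and 74.3 CPM of Nlrc5 on ND and CDA-HFD. The 11 class II genes summed to 45451 and 38226 CPM without Cre but to 25136 and 36877 CPM with Cre, so no common direction with diet was seen. NF-kB factors had 1 higher and 0 lower of 15, cytoskeleton genes 1 and 1 of 12 and costimulatory molecules 1 and 0 of 8. Relb had 674 CPM on ND and 478 on CDA-HFD in mice without Cre, but 493 and 510 CPM in mice with Cre. Monocyte markers had 2 of 2 higher, Csf1r with 25.6, 0, 91.9 and 110 CPM and Nr4a1 as above, beside the summed monocyte markers at 117, 24.99, 403 and 314 CPM, and the part of cells of that kind was not tested.

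**Figure D5:**
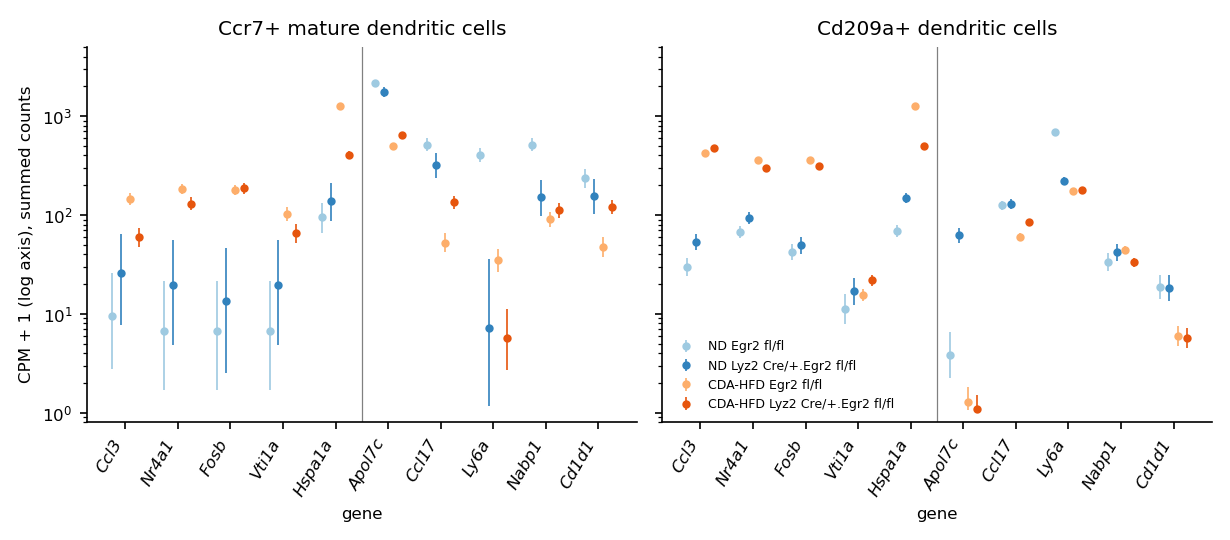
Levels of the 5 highest and 5 lowest genes of the diet comparison as CPM + 1 on a log axis, in Ccr7+ (left) and Cd209a+ cells (right), 1 point per mouse with its exact 95% interval of counting error. In the Ccr7+ cells Nr4a1, Fosb, Vti1a, Ccl3 and Hspa1a lie higher in both CDA-HFD mice than in both ND mice, Ccl17 and the rule gene Apol7c lower, and the ND intervals are wide because 21 and 12 cells were counted.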

How the data were processed

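Liver cells of 4 mice were analysed, 1 per group. Per the labels and the methods, the authors captured the cells on the BD Rhapsody system, amplified cDNA by TAS-Seq, mapped reads to GRCm38 and assigned barcodes to mice by hashtag, and their notes name R 4.2.1 and Seurat 4.1.1. The deposited values are whole-number counts per gene and barcode for 25909 genes, without normalization, and hashtag counts. The labels say that read 1 holds a molecular identifier, but whether reads or molecules were counted is not given in the sources used here, so intervals may be too narrow. For some genes the matrix holds no low values above 0. The 7 hashtag columns of no mouse were not used. For the CDA-HFD Lyz2 Cre/+.Egr2 fl/fl mouse the loading note in the labels writes another tag number than the tag list and the cell names, which give the same tag and were followed. The median share of its own hashtag in a member was 93.1%.

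Cells named for a mouse with at most 25% mitochondrial counts were kept, and barcodes that the authors named doublets were left out. No doublet caller was run. The members and the gene lists were chosen with earlier results of these data known. Counts were summed per mouse and class and divided by their total (CPM). Shares carry Clopper-Pearson intervals, CPM exact Poisson intervals and ratios the exact binomial split, all at 95%. Differences carry 95% intervals that combine the Clopper-Pearson limits of both shares by the square-and-add method of Newcombe, in place of his Wilson limits. A count of 0 was read as allowing 3 counts. Seurat 5.3.0 in R 4.3.3 clustered the cells with 5054 variable genes, 57 PCs and resolution 1.0. Thinning drew 3000 counts per cell, and no cell was below it. TMM factors came from edgeR 4.0.16, used for scaling alone. Cells outside the members that met 2 class rules were left out, 45 for Xcr1+ with Cd209a+ and 29 for neutrophils with either. The steps were run in Python 3.11.15 with numpy 2.4.6, scipy 1.17.1, pandas 2.3.3 and matplotlib 3.10.9, and the fold and interval code was tested on simulated data.

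Genes named are those of the lists, the 15 leading genes, and for genotype on CDA-HFD and diet in Egr2 fl/fl mice the 5 highest and 5 lowest ratios among genes on the same side in the other diet or genotype. Positions and promoters were taken from RefSeq (GRCm38.p6). Alternatives were the number of rule genes, Ccr7 as required, the hashtag share, thinning, count and CPM limits, TMM, the mean over cells, and clustering settings. Results for some genes of the lists are not reported here.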

Additional observations from a re-analysis of the deposited data

Results flagged for a closer look

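Barcodes that the authors had named doublets, which entered no comparison, were checked for the 5 rule genes. Of 1387 of them with at most 25% mitochondrial counts, 23 met the same rule (1.66%, 1.05% to 2.48%), where a count of 0 would allow up to 0.216%, with a median of 25027 counts per barcode. The share in cells named for a mouse was 1.53%. Meeting the rule says only that at least 3 of the 5 genes had a count, and a barcode with cells of several kinds can meet it with any one of them.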

How the results depend on the processing

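Of 107 alternatives, 90 left their result within its limit, 17 moved it and 0 reversed it. The 17 were all counts of genes at least 2-fold apart. For the clustering, only the share of members that fell into 1 cluster was judged. With 30 principal components 62.5% of the cells of that cluster were members, against 90.6% in the main setting. The share ratios stayed inside their own interval. However, the genotype ratio on ND went from 0.619 to 0.995 as a share of all members plus the other cells with at least 3 pan dendritic markers. Intervals gained or lost 1 under some definitions of the cells. Genotype on CDA-HFD with at least 2 rule genes gave 0.746 (0.583 to 0.954). Diet with Cre with at least 4 rule genes gave 1.67 (0.853 to 3.65). At least 90% own hashtag moved this diet ratio from 2.03 to 3.26. With at least 20 counts in place of 100, the genotype comparison on CDA-HFD gave 275 higher and 274 lower genes in place of 33 and 30, the diet comparison 984 and 652 in place of 200 and 94, and Xcr1+ cells 2182 lower in place of 1336. With at least 500 counts these were 2 and 3, 24 and 11, and for Xcr1+ cells 267 higher and 363 lower, and 436 genes were higher against Cd209a+ cells in place of 701. With 10 CPM added the genotype counts were 14 and 16, and 672 genes were lower than in Cd209a+ cells in place of 1184. The mean over cells gave 52 lower genes for genotype, and TMM scaling 60 lower for diet. So these counts depend on the depth asked of a gene. The alternatives that used the cells of the Seurat cluster or left out members meeting another class rule were chosen after seeing the data. The ND values rest on 21 and 12 cells. No paired test between diets or genotypes was made, since each group held 1 mouse. Ccr7+ and Cd209a+ cells came from the same mice, and their ratios within each mouse were left without a test, since the members were chosen on the same cells.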
